A study of Mus musculus with 8 samples.

Results

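The flavin-containing monooxygenase (FMO) genes Fmo1, Fmo2, Fmo4 and Fmo5 were followed in kidneys of mice given bisphenol A (BPA), a building block of polycarbonate, or vehicle. They were selected by gene name and are 4 of the 54532 genes in the deposited table. Fmo5 had been picked because it was higher in BPA, so its difference between the groups is described without a test. Polyadenylated RNA was sequenced in 4 BPA and 4 vehicle libraries of ICR mice, which are outbred. The sources used here do not give dose, route, duration, age or sex. Nothing in the labels ties each library to its own animal, so p-values reflect the spread between these samples only, which may be technical.

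FMO enzymes sit in the membrane of the endoplasmic reticulum and carry a bound flavin. They take electrons from NADPH and oxygen from the air, and place an oxygen atom on the nitrogen or sulfur of drugs, dietary amines and small metabolites. FMO1 is known as the main form of mouse kidney and can also convert hypotaurine to taurine. FMO2 is best known from lung, and FMO4 is a less studied form. FMO5 acts little on the usual FMO substrates, inserts oxygen beside a carbonyl group (a Baeyer-Villiger reaction), and is abundant in liver and gut.

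On GRCm38, Fmo4, Fmo1 and Fmo2 lie side by side on the minus strand of chromosome 1, and Fmo5 lies apart on the plus strand of chromosome 3. Fmo4 (ENSMUSG00000026692) runs from 162793188 to 162813972, Fmo1 (ENSMUSG00000040181) from 162829561 to 162866610, and Fmo2 (ENSMUSG00000040170) from 162874317 to 162898726. Fmo5 (ENSMUSG00000028088) runs from 97628804 to 97655282. No gene in the table overlapped these 4 loci. Only the longest alignment of each pair of genes was kept, so shorter stretches may be more alike. In these, the longest protein-coding transcripts of the 4 genes reached at most 69.1% identity with other FMO transcripts (Fmo2 with Fmo5, 551 aligned bases). Fmo2 also aligned to 119 genes outside the family over at most 209 bases, with up to 85.3% identity. Fmo5 aligned to 1, Ppp1r14a, over 177 bases with 75.7% identity. Gm4846 and Gm4847, counted here with the family, aligned to Fmo5 over 1490 and 1246 bases with 66.4% identity each, and both were at 0 FPKM in every library.

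RefSeq start windows (GRCm38.p6) were found for 3 of the 4 genes, Fmo2, Fmo4 and Fmo5. Read from the outer end of a window, the last bases before any annotated exon base are shown. These bases are given for the composition and the GC box described below. They are at chr3:97628769-97628803 (plus strand) for Fmo5, chr1:162898759-162898858 (minus strand) for Fmo2 and chr1:162812654-162812753 (minus strand) for Fmo4. Capitals mark matches to the motifs named below.
Fmo5: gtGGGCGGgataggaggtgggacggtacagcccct
Fmo2: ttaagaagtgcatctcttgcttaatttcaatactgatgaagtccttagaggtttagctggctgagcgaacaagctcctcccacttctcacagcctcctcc
Fmo4: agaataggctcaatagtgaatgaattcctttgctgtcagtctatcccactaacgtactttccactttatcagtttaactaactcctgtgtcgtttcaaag

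The 250 bases before the RefSeq start of Fmo5 held 56.0% G and C and 9 CG pairs, against 39.6% and 4 for the outer start of Fmo2, 47.6% and 5 for its inner start, and 42.4% and 4 for Fmo4. Counted from the outer end, 35 of these 250 bases come before the first annotated exon base met in Fmo5 and 146 in Fmo4. The count was 250 at the outer and 17 at the inner Fmo2 start. Bases beyond that point were not sorted into exon and intron. The Fmo5 composition is therefore mostly that of bases inside the annotated gene, where its CCAAT and TATA matches given below also lie. The Fmo4 window lies inside the annotated gene, since its RefSeq start is at 162812549 and the gene runs to 162813972 on the minus strand. The Fmo4 bases printed above are thus not upstream of the whole gene. The median over all 32851 windows was 52.4% and 6. Both strands were searched for 7 motifs, and no matches within a window overlapped. Fmo5 held the GC box printed above, spelled GGGCGG, which 32.7% of all windows hold. It also held a CCAAT box, a motif named by its letters, as a reverse complement that begins 211 bases before the RefSeq start, and 33.8% of windows hold this motif. A TATA box, spelled TATAAA, lay in Fmo5 as a reverse complement that begins 195 bases before the start, and it is found in 12.4% of windows. Fmo4 held a CCAAT box that begins 239 bases before its start. It also held the core of the estrogen response element, spelled GGTCA, as a reverse complement 75 bases before the start, and 35.2% of windows hold it. This Fmo4 match lies nearer the start than the 146 bases counted before the first exon base. The core of the element bound by AHR, spelled GCGTG, is in 28.2% of windows and was in no window of Fmo2, Fmo4 or Fmo5. The HNF1 core, spelled GTTAAT and found in 6.43% of windows, was likewise in no window of these genes. Nor was the AP-1 site, spelled TGANTCA and found in 6.75% of windows. The outer Fmo2 window held none of the 7 motifs, and the inner one held the estrogen response core as spelled, 8 bases before its start. A match is a description of the letters and not a sign of binding.

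The first question was how much of each FMO transcript the kidney holds. Levels are in FPKM, reads scaled by gene length and library size, so they can be compared between genes. Fmo1 was the highest in vehicle, at 95.9 ± 20.1 FPKM (SD, n = 4), followed by Fmo2 at 76.2 ± 11.9 FPKM. Fmo4 was at 8.07 ± 0.759 FPKM and Fmo5 at 6.11 ± 1.27 FPKM. Among the 13376 genes with a mean of at least 0.5 FPKM, Fmo1 ranked 525th and Fmo2 668th by their vehicle mean, whereas Fmo4 ranked 4775th and Fmo5 5687th. Fmo1 and Fmo2 were thus far up the range of tested genes, and Fmo4 and Fmo5 well below them.

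Fmo1 exceeded Fmo2 in all 4 vehicle libraries, but their ranges overlapped, and the ratio of Fmo1 to Fmo2 ran from 1.06 to 1.42. Fmo2 stood clear of Fmo4, with a lowest value of 61.3 FPKM against a highest of 9.13 FPKM. Fmo4 and Fmo5 were neighbours: the lowest Fmo4 value in vehicle, 7.35 FPKM, was just above the highest Fmo5 value, 7.22 FPKM. Together, Fmo1 and Fmo2 held most of the summed FMO FPKM of vehicle kidney, 51.2 ± 3.30% and 40.9 ± 2.77%, while Fmo4 held 4.39 ± 0.680% and Fmo5 3.40 ± 1.11%.

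Fmo6 and Fmo9, further genes of the family, were at or near 0. Fmo9 had 2 reads in vehicle replicate 4 and 0 in the other libraries. Fmo6 had 0 reads in every library, which allows a level of up to 0.0837 to 0.0991 FPKM (3 reads in a library, counting error only). Both genes were below the filter and were not tested. On chromosome 1, Fmo6 lies 17825 bases from the abundant Fmo2.

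**Figure D1:**
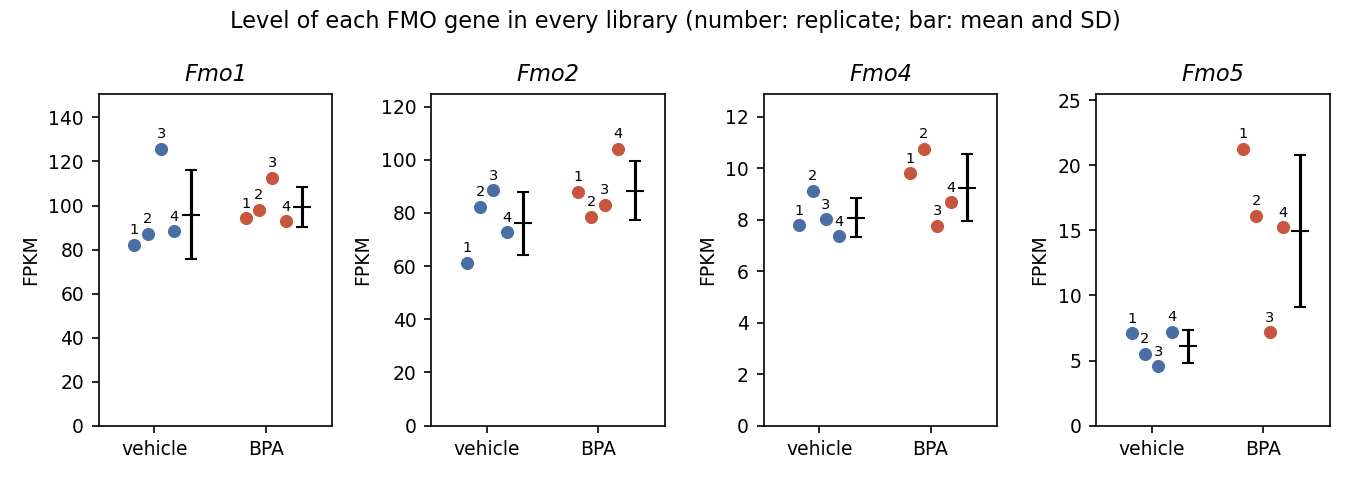
Level of Fmo1, Fmo2, Fmo4 and Fmo5 in FPKM (vertical axes, starting at 0 and scaled per gene) in 4 vehicle (blue) and 4 BPA (red) libraries; numbers are replicates, and the bar is the mean with its SD. Fmo5 is above every vehicle library in BPA replicates 1, 2 and 4 but not in replicate 3, whereas the groups of the other 3 genes lie within or close to each other's range.

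Fmo5 showed the widest difference between the groups. In vehicle it was at 7.08, 5.54, 4.58 and 7.22 FPKM in replicates 1 to 4, and in BPA at 21.3, 16.1, 7.18 and 15.3 FPKM. BPA replicates 1, 2 and 4 were above every vehicle library, and BPA replicate 3 lay just under the highest vehicle value, so the groups overlapped by that library. The BPA mean of 15.0 ± 5.82 FPKM was 2.45 times the vehicle mean, and the fitted difference was 1.10 on the log2(FPKM + 1) scale (SE 0.288). These values rest on 402 to 2093 recovered reads per library. As a description, 39 of the 13376 tested genes, 14 of them protein-coding, had a larger log2 difference in the direction of BPA. Replicates 1 and 2 alone gave a log2 difference of 1.42, and replicates 3 and 4 alone gave 0.77. These pairs of replicates also differ in Arntl, which encodes the clock activator BMAL1: it was at 2.22 to 4.27 FPKM in replicates 1 and 2 of both groups and at 0.106 to 0.550 FPKM in replicates 3 and 4. The pairs differ in tissue markers as well. The 5 endothelium markers summed to 49.3, 58.2, 16.3 and 14.8 FPKM in vehicle replicates 1 to 4. In BPA replicates 1 to 4 they summed to 54.7, 64.7, 26.8 and 30.5 FPKM. Not all marker lists followed this split. Whether the Fmo5 difference changed between these pairs of replicates was not tested.

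Each library was left out in turn. The fitted log2 difference of Fmo5 was 1.39 without BPA replicate 3, the highest of these 8 fits, and 0.91 without BPA replicate 1, the lowest. Without BPA replicate 4, the library with the fewest detected genes (17174), the difference was 1.06.

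Several library measures are given beside Fmo5, and their part in its difference was not tested. The share of reads from the mitochondrial genome was higher in all 4 BPA libraries (9.66 to 14.2%) than in vehicle (7.02 to 8.33%). The list of 11 proximal tubule markers without Kap, all detected, summed to 5876 to 7213 FPKM in vehicle and 5153 to 7400 FPKM in BPA. Its lowest sums, 5153 and 5176 FPKM, were in BPA replicates 2 and 1, and its highest was in BPA replicate 3. Cyp4b1, at 1975 to 3322 FPKM, was the largest member of this list, and not every marker followed the sum. In BPA replicate 1, Cyp4b1 and Slc34a1 were below every vehicle library, and Slc5a12 was above every one. With Kap, an abundant androgen-regulated gene that made up most of the sum, the 12 markers summed to 51595 to 69073 FPKM in vehicle and to 64892, 63341, 69336 and 35929 FPKM in BPA replicates 1 to 4. The order of the libraries thus depended on Kap, which was at 29692 FPKM in BPA replicate 4 and at 45458 to 61935 FPKM in the other 7 libraries. In bulk tissue, fewer cells of a type and less RNA per cell cannot be told apart. Liver RNA, in which Fmo5 is abundant, was followed with 4 markers, which summed to 2.32 to 5.04 FPKM in vehicle and to 9.60, 3.06, 7.77 and 11.2 FPKM in BPA replicates 1 to 4. Alb was the highest of them, at 1.84 to 10.5 FPKM, and the other 3 stayed at or below 0.793 FPKM.

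Base composition also moves with the group in these libraries. The longest transcripts of Fmo1, Fmo2, Fmo4 and Fmo5 held 42.6, 43.6, 45.0 and 44.0% G and C, below the median of 49.7% of tested genes. The 1417 tested genes within that range had a median log2 change of 0.08, and 67.7% of them were higher in BPA, against -0.01 and 48.0% of all tested genes. After correction for GC the difference of Fmo5 was 1.02.

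Fmo1, the most abundant FMO gene, differed little between the groups. Its level was 82.1, 87.2, 126 and 88.3 FPKM in vehicle and 94.2, 98.0, 113 and 93.0 FPKM in BPA. Vehicle replicate 3 was the highest of all 8 libraries, and every BPA library lay within the vehicle range. The log2 change was 0.07 (SE 0.154, 95% interval -0.28 to 0.42, limma adjusted p = 0.870), with 2 of 4 BPA libraries above the vehicle mean. Its sign turned after GC correction (-0.024), so no direction is given for Fmo1. Without vehicle replicate 3 the log2 change was 0.21.

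Fmo2, the second abundant FMO gene, was at 61.3, 82.3, 88.5 and 72.7 FPKM in vehicle and at 88.0, 78.5, 83.1 and 104 FPKM in BPA. All 4 BPA libraries were above the vehicle mean, but only BPA replicate 4 exceeded the highest vehicle library. The log2 change was 0.22 (SE 0.148, 95% interval -0.12 to 0.55, limma adjusted p = 0.572). It was 0.12 without both replicates 4 and 0.12 without vehicle replicate 1, the library with the lowest level.

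Fat and connective tissue, which can carry Fmo2, were followed by their markers. All 8 adipocyte markers were detected, and their sum ran from 32.5 to 361 FPKM in vehicle and from 31.6 to 54.8 FPKM in BPA. Vehicle replicate 4 had the highest sum. The 6 skeletal muscle markers summed to 225 FPKM in that library and to at most 1.17 FPKM in every other. The 4 loop of Henle markers summed to 158 FPKM there and to at least 355 FPKM elsewhere. Adipoq, the adipocyte hormone adiponectin, was at 0, 7.17, 2.53 and 22.2 FPKM in vehicle and at 1.29, 0, 1.87 and 0 FPKM in BPA. The 7 stroma and fibroblast markers, all detected, summed to 9.78 to 20.9 FPKM in vehicle and 13.1 to 23.5 FPKM in BPA. The part of these tissues in the Fmo2 values was not tested.

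Fmo4, the least abundant FMO gene of chromosome 1 that reached the filter, was at 7.79, 9.13, 8.02 and 7.35 FPKM in vehicle and at 9.81, 10.8, 7.77 and 8.67 FPKM in BPA. BPA replicates 1 and 2 were above every vehicle library, and BPA replicate 3 was within the vehicle range. The log2 change was 0.17 (SE 0.118, 95% interval -0.10 to 0.44, limma adjusted p = 0.577), with 3 of 4 BPA libraries above the vehicle mean. The change was 0.10 without BPA replicate 2.

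Of the 3 members not chosen by their change, 0 passed limma's test at an adjusted p under 0.05, where 0.00748% of all tested genes passed (1 of 13376), and 0 had an unadjusted p under 0.05, against 4.18% of all tested genes higher and 6.83% lower in BPA. Limma-voom on recovered reads called 0 of all 13376 tested genes, and so 0 of the 3. In 0 of these 3 were the groups free of overlap, against 7.89% of all tested genes. The log2 differences of the 3 genes ran from 0.07 to 0.22. Each interval held 0, and the highest upper bound was 0.55, for Fmo2.

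**Figure D2:**
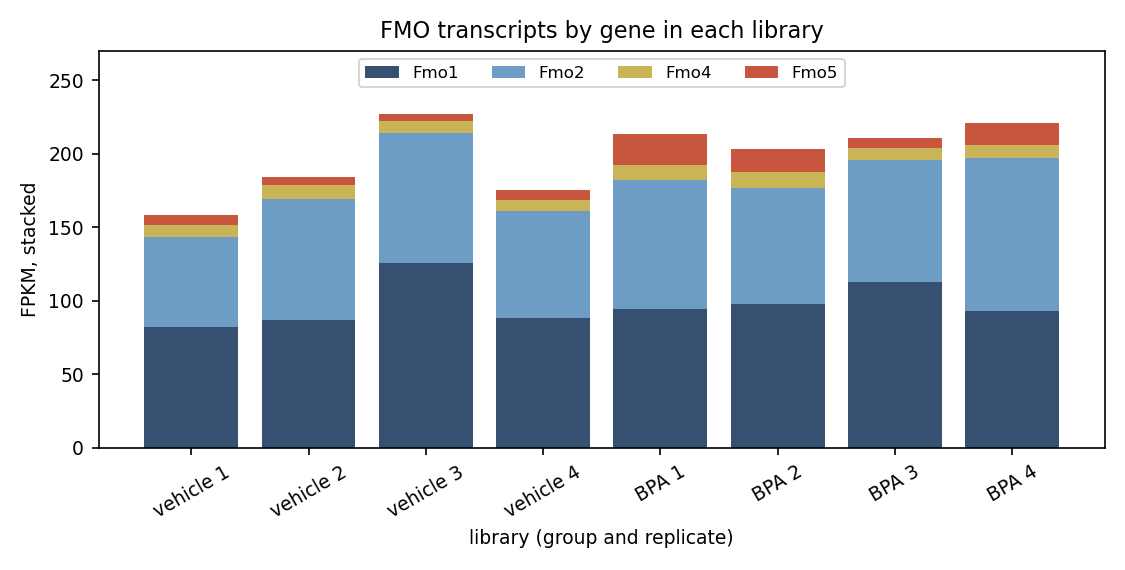
Summed FPKM of Fmo1, Fmo2, Fmo4 and Fmo5 in each library (horizontal axis, group and replicate), stacked by gene. Fmo1 and Fmo2 make up most of every bar, and the Fmo5 segment is tallest in BPA replicates 1, 2 and 4.

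The shares of the FMO pool were compared next. Fmo1 held 46.9 ± 5.04% of summed FMO FPKM in BPA against 51.2 ± 3.30% in vehicle, and its shares overlapped between the groups. Fmo2 held 38.6 to 47.0% and Fmo4 3.69 to 5.28% in BPA. Fmo5 held 9.95, 7.92, 3.40 and 6.89% of summed FMO FPKM in BPA replicates 1 to 4, against 4.47, 3.01, 2.01 and 4.11% in vehicle. This is a description, since Fmo5 was chosen for its level. The order of Fmo4 and Fmo5 was not the same in both groups: Fmo4 exceeded Fmo5 in 4 of 4 vehicle libraries, and Fmo5 exceeded Fmo4 in 3 of 4 BPA libraries, with ratios of Fmo5 to Fmo4 of 2.17, 1.50, 0.923 and 1.76. The summed FMO level was 159 to 228 FPKM in vehicle and 203 to 221 FPKM in BPA, so the BPA libraries lay within the vehicle range. The upper end of that range was vehicle replicate 3 alone. The other vehicle libraries were at 159 to 184 FPKM, below every BPA library.

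Genes beside the FMO loci gave a local comparison. Prkab2, a subunit of the energy sensor AMPK, begins 2911 bases from the end of Fmo5 on the same strand and averaged 1.22 FPKM in vehicle against 1.15 FPKM in BPA. Chd1l, a chromatin remodeller on its other side, was at 2.62 and 2.74 FPKM. Olfr1402 and Gm17651, the next protein-coding genes on either side, were at 0.0276 FPKM or less. On chromosome 1, Prrc2c, the nearest protein-coding gene below Fmo4, was at 5.35 and 5.10 FPKM. Over the 8 libraries Prkab2 ran between 1.01 and 1.38 FPKM and Chd1l between 2.12 and 3.06 FPKM.

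The genes most like each member were found by Pearson correlation of log2(FPKM + 1) over the 8 libraries among 11237 named protein-coding genes. The correlations include the difference between the groups and are a description. Fmo5 was most like Cyp4a12b, a fatty acid hydroxylase (r = 0.966), Tpst1, a tyrosylprotein sulfotransferase (r = 0.966), and Arhgef6, a guanine nucleotide exchange factor (r = 0.939). Cyp4a12b was at 2.35, 1.80, 1.65 and 3.27 FPKM in vehicle and at 11.4, 5.46, 3.18 and 5.79 FPKM in BPA, again with replicate 3 as the lowest BPA library. Cyp4a12b has a close relative, Cyp4a12a, so the split of reads between them is uncertain. Tpst1 and Arhgef6 were low, at 0.802 to 1.84 and 0.393 to 1.03 FPKM.

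Fmo1 was most like Edrf1, a regulator of erythroid genes (r = 0.981), Cyp2a4, a steroid hydroxylase (r = 0.959), and Ctsa, a lysosomal carboxypeptidase (r = 0.950). Cyp2a4 reached 634 FPKM in replicate 3 of vehicle and 589 FPKM in replicate 3 of BPA, and was at 290 to 401 FPKM in the other 6 libraries, so the shared pattern is a high level in both replicates 3. Fmo2 was most like Pign (r = 0.960), which acts in the synthesis of membrane anchors, Fnbp1l (r = 0.957), an adaptor of the actin cytoskeleton, and Prkra (r = 0.945), an activator of the kinase PKR. Fmo4 was most like Ctsk, a lysosomal protease (r = 0.983), Elovl5, an elongase of polyunsaturated fatty acids (r = 0.975), and Nuak1, a kinase related to AMPK (r = 0.971). Ctsk was low, at 0.0762 to 2.23 FPKM, and its vehicle mean of 0.517 FPKM was near the filter.

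**Figure D3:**
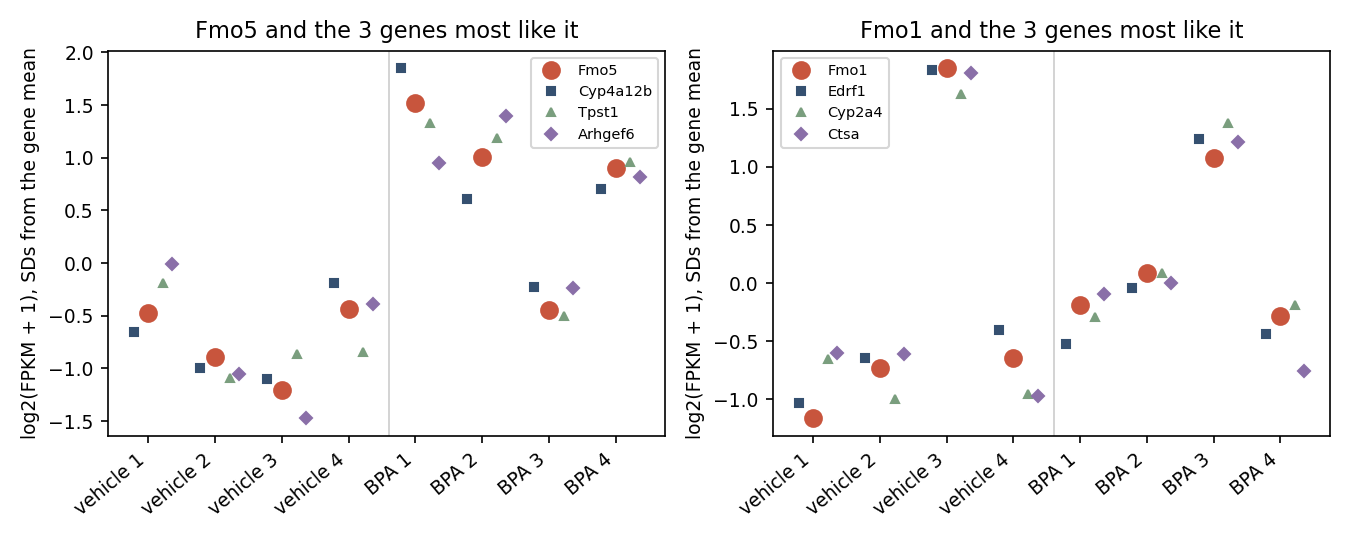
Level of Fmo5 (left) and Fmo1 (right) and of the 3 genes most like each, as log2(FPKM + 1) in SDs from the gene's own mean (vertical axis), in the 8 libraries (horizontal axis; the grey line divides vehicle from BPA). The Fmo5 group is high in BPA replicates 1, 2 and 4, and the Fmo1 group in replicate 3 of both groups.

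Genes that supply or share the work of FMO enzymes were compared as lists, with counts beside the median change of -0.01 over all tested genes. In no list did a gene pass limma's test over all genes, and limma-voom called 0 of 13376. Of all tested genes, 4.18% were higher and 6.83% lower in BPA at an unadjusted p under 0.05 in limma. These shares stand beside the counts of each list. Enzymes of NADPH supply had 5 of 11 tested members above and 6 below 0 (median change -0.08). Of these, 1 had an unadjusted p under 0.05, and it was higher in BPA. That gene was G6pdx, the entry enzyme of the pentose phosphate pathway, at 8.24, 8.59, 8.37 and 7.80 FPKM in vehicle and 8.87, 9.77, 9.99 and 10.4 FPKM in BPA. Its groups did not overlap (log2 change 0.22, SE 0.0877, limma adjusted p = 0.432), as in 7.89% of tested genes. Pgls and Taldo1, of the same pathway, had log2 changes of -0.38 and -0.31.

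Taurine synthesis and uptake, the pathway that FMO1 can enter through hypotaurine, had 5 of 6 tested members above and 1 below 0 (median change 0.09), and 0 had an unadjusted p under 0.05. Vnn1, which releases cysteamine, averaged 22.4 ± 6.23 FPKM in vehicle against 31.3 ± 11.1 FPKM in BPA (limma adjusted p = 0.513). Cdo1, which oxidises cysteine, was at 81.1 ± 29.0 and 61.4 ± 10.05 FPKM (limma adjusted p = 0.573). Csad, which makes hypotaurine, was at 83.0 ± 9.25 and 90.8 ± 11.0 FPKM.

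Other microsomal and phase I enzymes had 6 of 16 tested members above and 10 below 0 (median change -0.12), and 0 had an unadjusted p under 0.05. The 3 with the smallest p were Adh1, an alcohol dehydrogenase (416 ± 161 and 292 ± 62.9 FPKM), Cyb5r3, the cytochrome b5 reductase (55.6 ± 10.5 and 46.9 ± 8.90 FPKM), and Maoa, a monoamine oxidase (1.25 ± 0.106 and 1.57 ± 0.420 FPKM). Limma adjusted p-values were 0.526, 0.607 and 0.609.

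Regulators of drug metabolism genes had 7 of 16 tested members above and 9 below 0 (median change -0.04). With an unadjusted p under 0.05, 2 were higher and 2 were lower, where 4.18% of all tested genes were higher and 6.83% lower. Cebpb, a transcription factor, averaged 21.2 ± 7.14 FPKM in vehicle against 7.24 ± 4.20 FPKM in BPA (log2 change -1.54, limma adjusted p = 0.365). Its relative Cebpa averaged 16.1 ± 5.26 and 9.73 ± 1.77 FPKM (log2 change -0.63, limma adjusted p = 0.408). The glucocorticoid receptor gene Nr3c1 was at 14.0 ± 0.928 and 18.5 ± 3.11 FPKM (log2 change 0.37, limma adjusted p = 0.387). The groups overlapped in each of these genes. Cebpb, Cebpa and Nr3c1 held 67.2, 62.6 and 42.2% G and C, and the part of base composition in their changes was not tested.

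Targets of the aryl hydrocarbon receptor AHR, which induces several drug metabolism genes, could be tested for 3 of 7 members, with 2 above and 1 below 0, and 0 had an unadjusted p under 0.05. Cyp1b1 was at 4.22, 4.07, 0.983 and 1.21 FPKM in vehicle and at 5.36, 6.36, 2.40 and 4.84 FPKM in BPA (log2 change 0.75, limma adjusted p = 0.484), and the groups overlapped. Tiparp had a log2 change of 0.10 and Nqo1 of -0.06. Cyp1a1 and Cyp1a2, the classic AHR targets, did not reach the filter.

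**Figure D4:**
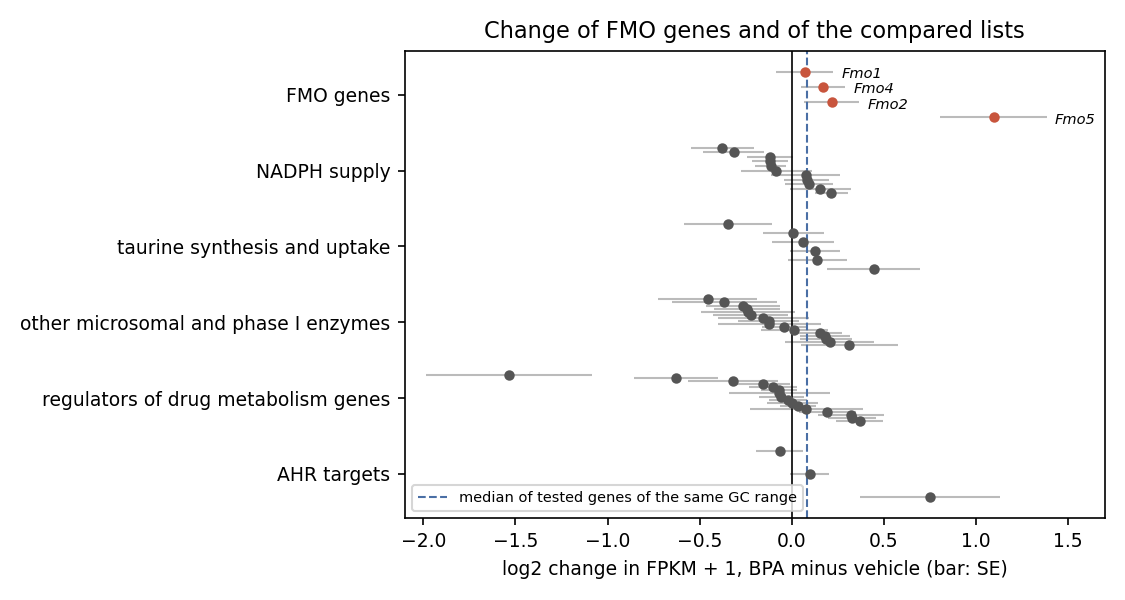
Change in log2(FPKM + 1), BPA minus vehicle (horizontal axis; bars are the SE), of the 4 FMO genes (red, named) and of the tested members of the 5 other lists (grey). The dashed line marks the median of tested genes within the GC range of the FMO genes, 0.08. Fmo5 lies farther right than any gene of the 5 lists, and the other FMO genes lie at 0.07 to 0.22. Fmo5 was picked for its rise in these same libraries, so its place is only a description.

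The 4 FMO differences were recomputed under 21 other settings each. Fmo2 and Fmo4 stayed above 0 in all 21, at 0.12 to 0.32 and 0.10 to 0.24, and Fmo5 in all 21, at 0.91 to 1.39. For Fmo5, picked for its rise in these same libraries, this is only a description. The settings are not independent: the other filters and the replicate terms leave the fitted change as reported by design. Fmo1 was above 0 in 19 and turned below 0 in the 2 with GC correction.

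**Figure D5:**
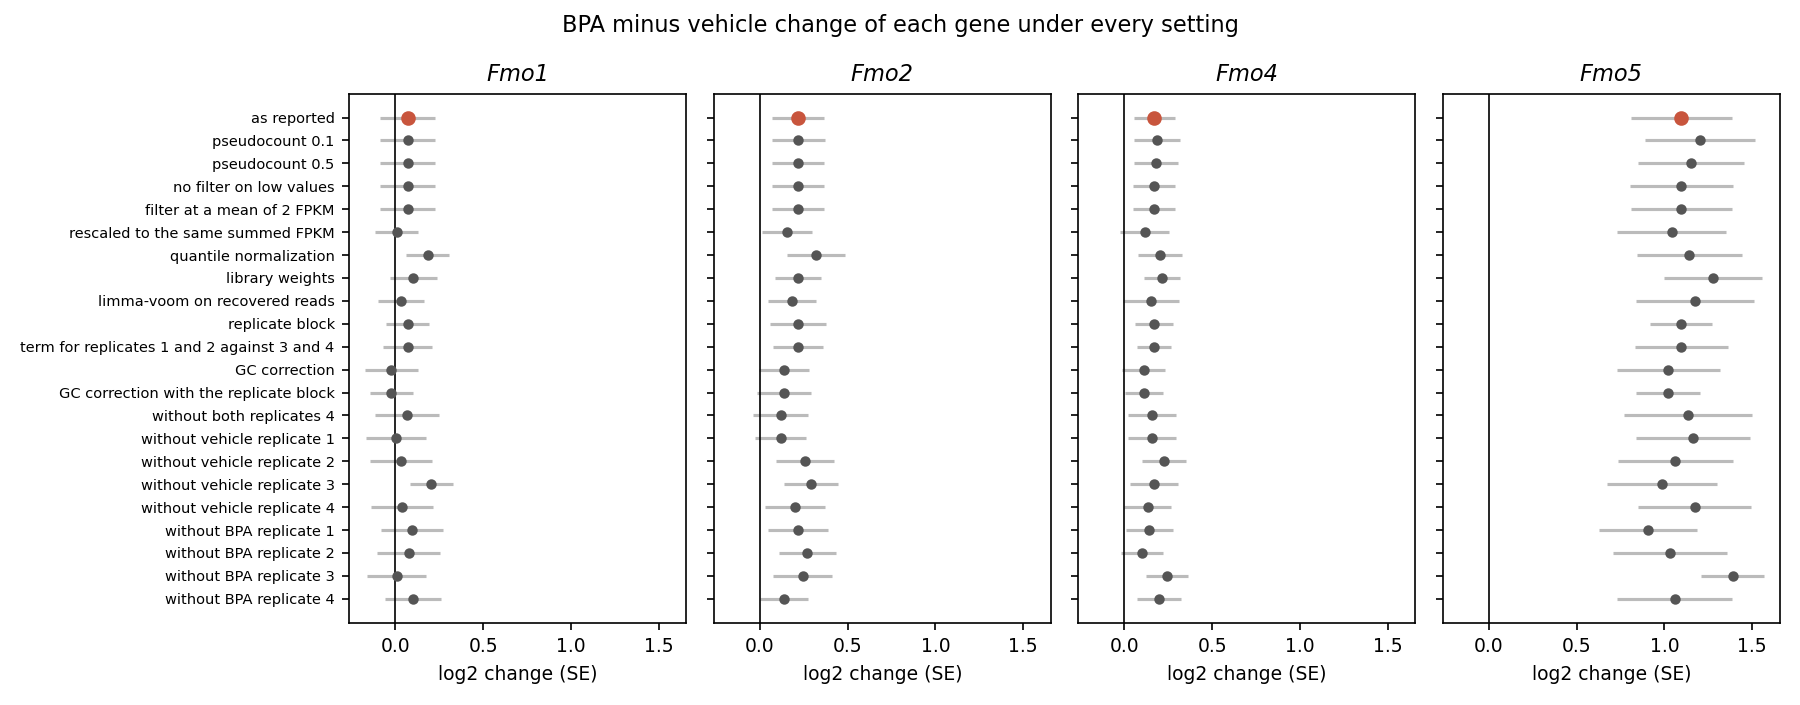
Fitted log2 change, BPA minus vehicle (horizontal axis, shared by the panels; bars are the SE), of each FMO gene as reported (red) and under 21 other settings (grey, named at the left). Fmo5 runs from 0.91 (BPA replicate 1 left out) to 1.39 (BPA replicate 3 left out), and Fmo1 crosses 0 under GC correction.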

How the data were processed

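The deposited values are FPKM, made by the authors. The submitters' processing notes name GRCm38 and DESeq2 1.20.0 without saying for which step, and the sources used here give no aligner or counter. Columns named BPA match the BPA libraries. Columns with the letter C were assigned to vehicle, since the labels give no further group, and their number was read as the replicate. Low values were whole multiples of 1 read within 0.01 reads in 100% of cases, and recovered reads totalled 15944081 to 17351540 per library. The deposited gene lengths, in another unit (bases), served this recovery.

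Limma 3.58.1 in R 4.3.3 was fitted to log2(FPKM + 1), which understates changes of low genes, over 13376 genes with a mean of at least 0.5 FPKM, with trended, robust variance, 2-sided, adjusted by Benjamini-Hochberg over all genes; the script was tested on simulated data. No set test was used. GC came from the longest GENCODE M21 transcript (known for 99.9% of tested genes), and similarity from blastn 2.17.0. Sequences are from RefSeq. The rule for named genes took the 4 members, other FMO genes (1 item is not reported here), up to 3 genes per list by p, the 3 genes most like each member and the neighbouring genes. The members and lists were chosen with earlier results of these data known.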

Additional observations from a re-analysis of the deposited data

Results flagged for a closer look

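Fmo1 in vehicle replicate 3 stood far from the other vehicle libraries, at 126 FPKM against 82.1 to 88.3 FPKM. The gap to the nearest library was 0.858 of the group's range, above Dixon's 95% critical value for 4 samples. The Fmo1 value was the only one flagged among the 11 sets of 4 libraries examined for FMO genes. Fmo9 in vehicle was among these sets but could not be flagged, because only vehicle replicate 4 held reads. Chance gives such a value in about 1 in 20 sets, so 1 among 11 is not unusual. Without vehicle replicate 3 the log2 change of Fmo1 was 0.21 in place of 0.07.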

How the results depend on the processing

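Alternatives were other pseudocounts, filters, scalings, library weights, limma-voom, terms for replicates, GC correction and libraries left out. Fmo1 turned to -0.024 after GC correction, with or without the replicate block. Leaving out each library gave 0.0032 to 0.21 for Fmo1, 0.12 to 0.29 for Fmo2, 0.10 to 0.24 for Fmo4 and 0.91 to 1.39 for Fmo5. With a replicate block the changes were those reported (0.07, 0.22, 0.17 and 1.10), because the design is balanced. Same-numbered libraries correlated in their deviations by 0.14, 0.02, 0.14 and -0.03. Such weak correlations do not settle whether the numbers pair the samples. The adjusted p of Fmo1, Fmo2 and Fmo4 ran from 0.400 to 0.995 over all alternatives. Over all genes limma called 1; it called 8 with library weights, 2 with a term for replicates 1 and 2 against 3 and 4, 0 with limma-voom, 0 with the replicate block, 0 with GC correction and the block, and 0 to 4 when each library was left out. The cause of these shifts was not tested. Depth is no narrow limit for the 4 genes, with at least 402 reads per library, but it is for Fmo9.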
